A study of Mus musculus with 8 samples.

Results

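The genes described here are 9 genes of the B lineage that encode parts of the B cell receptor and pre-B cell receptor or factors that establish the lineage: Cd79a, Cd79b, Ms4a1, Blnk, Vpreb1, Vpreb3, Igll1, Ebf1 and Pax5. They were picked by gene symbol, and each symbol matched 1 of the 54532 genes in the count table. RNA-Seq reads were counted in 8 libraries of mouse bone marrow LSK cells (Lin- Sca-1+ c-Kit+), a sorted compartment of stem and progenitor cells. Of these libraries, 4, numbered 1 to 4, came from Zeb1-/- EpCAM+ LSK cells and 4, with the same numbers, from Zeb1-/- EpCAM- LSK cells. EpCAM is a cell surface adhesion molecule of epithelia. All mice were C57BL/6, carried Zeb1 fl/fl and Mx1-Cre, were between 8 and 12 weeks old and had received pIpC, and cells were taken 14 days after the last dose. Mx1-Cre is switched on by interferon in many cell types, so the deletion of Zeb1 was not limited to LSK cells. Both fractions came from deleted mice, and the comparison holds no library from mice with intact Zeb1. The lineage antibodies that the authors list for LSK cells included B220, a surface protein of B cells, so the gate was meant to leave out cells that carried B220. How complete this was in the sorted fractions is not given in the sources used here.

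The B cell receptor is a membrane immunoglobulin held by a heterodimer of CD79A and CD79B, which carries the signal into the cell. Before a light chain has been rearranged, the surrogate light chain, built from VPREB1 and IGLL1 (lambda 5), takes its place in the pre-B cell receptor, and the adaptor BLNK links the receptor to its downstream enzymes. EBF1 and PAX5 are the transcription factors that specify and commit B cell progenitors, and the Cd79a promoter is among their known targets. MS4A1 is CD20, a surface protein of later B cell stages.

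Libraries held 15225714 to 17073546 counted reads in the EpCAM+ fraction and 14114491 to 15929923 in the EpCAM- fraction. Epcam itself was at 187 ± 32.7 CPM (read counts scaled to library size; mean ± SD, n = 4) in EpCAM+ cells and at 3.86 ± 3.61 CPM in EpCAM- cells, as the sort implies. Counts over the whole of Zeb1 (19.5 ± 3.75 against 11.9 ± 2.14 CPM) do not separate reads of the deleted part from the rest and check nothing about the deletion. The 8 stem and progenitor markers examined were expressed in both fractions, and 7 of them were called higher and 0 lower in EpCAM+ cells (median log2 change 1.55, summed level 2415 to 2798 CPM in EpCAM+ and 1173 to 1801 CPM in EpCAM- libraries). EpCAM+ libraries 1 and 4 stood apart in conventional dendritic cell markers and EpCAM+ library 1 in plasma cell markers. The values of these markers without these libraries are given where they are described. Of 13560 genes tested with edgeR's quasi-likelihood test, 5779 (42.6%) had an adjusted p under 0.05 between the fractions, 2961 (21.8%) higher and 2818 (20.8%) lower in EpCAM+ cells. The median fitted change over all genes tested was 0.02 on the log2 scale, and with upper quartile scaling it was 0.11 and 63.6% of the calls were higher in EpCAM+ cells, against 51.2% here.

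The 9 genes did not move as a block. Ms4a1 and Cd79a were higher in EpCAM+ cells, while Cd79b, the partner of Cd79a and the most abundant of the 9 for its length, differed by less than a factor of 2 between the fraction means. The genes of the surrogate light chain were present at low counts in all 8 libraries, with no call in either direction. No read of Pax5 was counted in any library, and Ebf1 had at most 3 reads in a library. Of the 9 genes, 7 passed the filter on low counts, and 2 of these 7 were called, both higher, where 42.6% of all genes tested were called and 21.8% were called higher. That fit was unpaired. With the replicate number as a block Cd79b was called as well, also higher, where 6818 of 13560 genes tested were called. The median fitted change of the 7 tested genes was 0.93 (log2, EpCAM+ over EpCAM-). In 1 of the 7, Ms4a1, every EpCAM+ library was above every EpCAM- library, against 20.1% of all genes tested. Ms4a1 passed the filter through its EpCAM+ libraries alone.

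**Figure D1:**
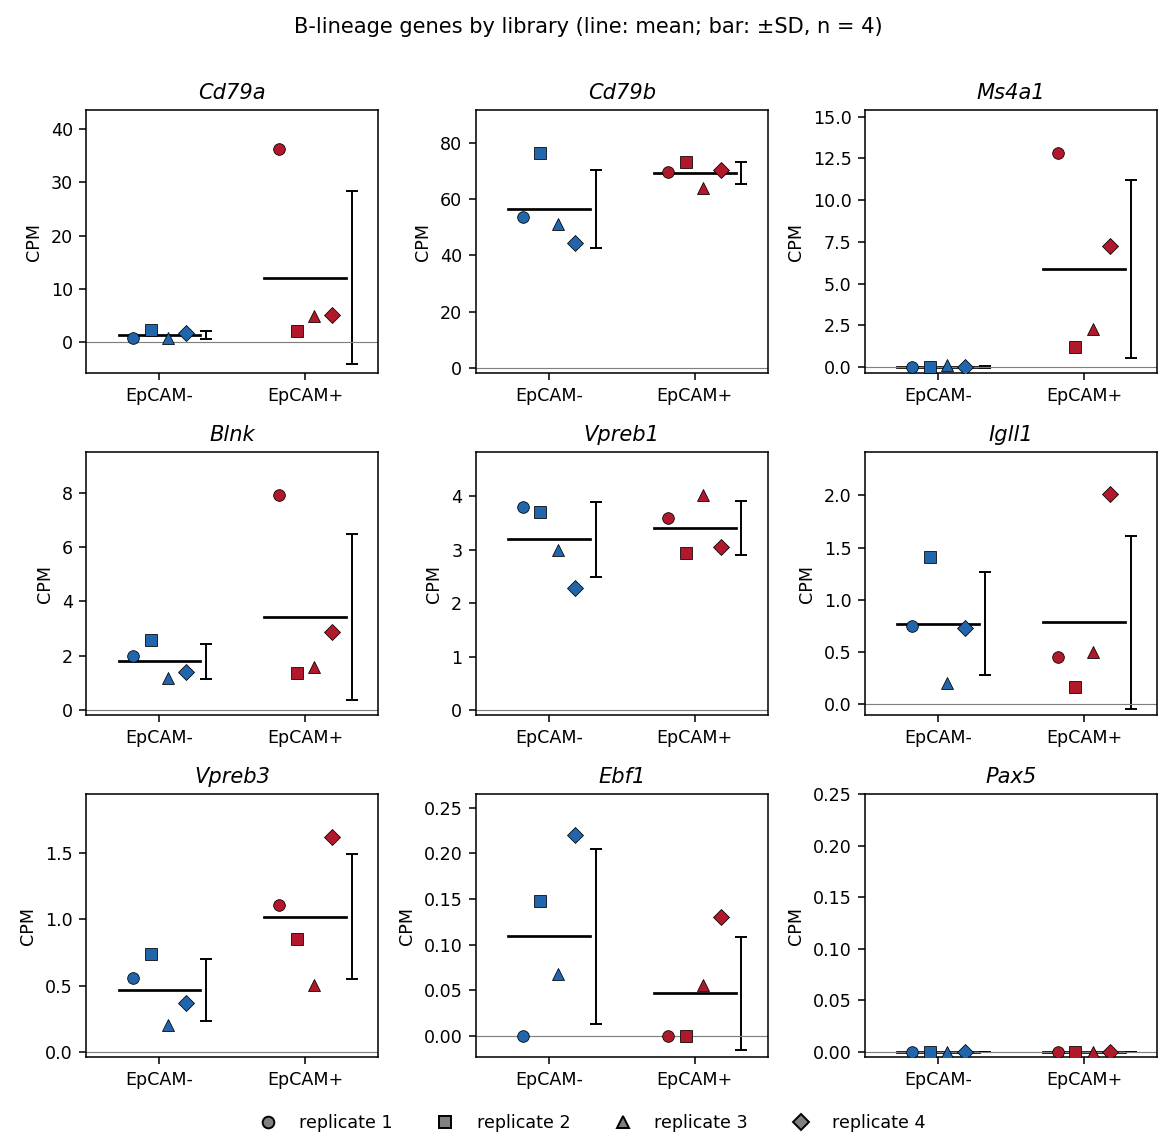
Level of each of the 9 genes in every library, in CPM on a linear axis that differs between panels. Symbols mark the replicate number, the line is the mean and the bar is ±1 SD (n = 4). In the EpCAM+ fraction Cd79a, Ms4a1 and Blnk are highest in library 1 (36.4, 12.8 and 7.91 CPM), while Cd79b lies between 64.0 and 72.9 CPM and Pax5 is at 0 throughout.

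Cd79a (ENSMUSG00000003379, GRCm38 chr7:24897381-24902197, plus strand) encodes the alpha chain of the signaling heterodimer. Its reads numbered 556, 35, 88 and 76 in EpCAM+ libraries 1 to 4 and 12, 29, 9 and 21 in EpCAM- libraries 1 to 4. EpCAM+ library 1 held 75.4% of the summed EpCAM+ level, and EpCAM+ library 2 (1.98 CPM) lay below EpCAM- library 2 (2.15 CPM), so the fractions overlapped. The fitted log2 fold change was 3.26 (SE 0.89), with an adjusted p of 0.0144 by edgeR's quasi-likelihood test, and EpCAM+ was higher in 3 of 4 pairs of libraries with the same number. The exact two-sided permutation test of the same 8 levels gave p = 0.0571, where 0.0286 is the smallest that 4 against 4 allows. Without EpCAM+ library 1 the fitted value was 1.64 (edgeR adjusted p 0.0240), and without EpCAM+ libraries 1 and 4 it was 1.45 (edgeR adjusted p 0.0726), so the call was lost when both were left out. EpCAM+ library 4 (4.93 CPM) was level with EpCAM+ library 3 (4.92 CPM), and the fit without libraries 1 and 4 called 3675 genes, against 5779 with all libraries. With the replicate number as a block the fitted value for Cd79a was 2.59 (edgeR adjusted p 0.0243). In sequenced bulk samples, fewer cells that express a gene and less of its RNA per cell cannot be told apart.

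The Cd79a promoter is shown because it is a textbook target of the factors among the 9 genes and because it carries the E-box CAGGTG, a sequence that ZEB1 and the E proteins can both recognise. The RefSeq promoter window of Cd79a (GRCm38.p6) begins 250 bases before the RefSeq transcript start, and the gene model of the count table starts within it, upstream of the RefSeq start. The first 134 bases of the window, up to the last base before that gene model (chr7:24897247-24897380, plus strand), read as follows, 5′ to 3′, with the E-box, which begins 154 bases before the RefSeq start, in capitals.
Cd79a: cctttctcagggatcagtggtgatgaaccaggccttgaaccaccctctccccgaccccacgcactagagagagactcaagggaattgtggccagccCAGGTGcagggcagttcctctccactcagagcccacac
The E-box CAGGTG was searched on both strands in windows from 250 bases before to 50 bases after each start. It occurred in 6640 of 32851 windows (20.2%), so a match is common. RefSeq windows were held for 7 of the 9 genes (8 windows), and 4 of the 8 windows contained it: those of Cd79a, Igll1, Vpreb1 and Blnk. The 30 bases around the other 3 matches are given to compare their flanks, each on the strand of its gene, at chr16:16863976-16864005 (Igll1, minus strand), chr16:16869326-16869355 (Vpreb1, minus strand) and chr19:40994364-40994393 (Blnk, minus strand), with CAGGTG or its reverse complement CACCTG in capitals.
Igll1: gctacacagatcCACCTGcactggaatagc
Vpreb1: atgacgttccagCAGGTGcttcctcccaga
Blnk: aacctggcaacaCACCTGatcataaaagag
Of the 4 genes with a match only Cd79a was called between the fractions, and no library with intact Zeb1 was compared, so these data hold no test of the sites. The core CCCNNGGG, part of the sites that EBF1 recognises and its own reverse complement, was searched in the same windows. Only exact matches were counted, so a window without one, such as that of Cd79a, is not shown to lack a site that differs from the core. An exact match was in 4491 of the 32851 windows (13.7%) and in 1 of the 8 windows of the B-lineage genes, that of Igll1. There it lies at chr16:16864198-16864227 within the 30 bases below and is in capitals.
Igll1: tgctccacagaCCCAGGGGccctcagggac

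Cd79b (ENSMUSG00000040592, chr11:106311341-106314762, minus strand) encodes the beta chain of the same heterodimer. It was counted 1065, 1286, 1145 and 1084 times in EpCAM+ libraries 1 to 4 and 860, 1030, 749 and 601 times in EpCAM- libraries 1 to 4. EpCAM- libraries 1, 3 and 4 lay below all EpCAM+ libraries, while EpCAM- library 2 (76.2 CPM) was the highest of the 8. The fitted log2 fold change was 0.30 (SE 0.14, 95% interval -0.06 to 0.65), with an adjusted p of 0.120 in edgeR's unpaired test and p = 0.143 in the exact permutation test. Libraries of the same number deviated together across the table, and with the replicate number as a block the value was 0.32 (SE 0.11) and the edgeR adjusted p 0.0370, so the pairing turned the result into a call. Leaving out EpCAM- library 2 also did so, at 0.47 (edgeR adjusted p 0.00417).

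Set against each other per kb of gene length, the 2 chains were far from equal in both fractions. Cd79a was at 51.3%, 2.67%, 7.55% and 6.89% of the level of Cd79b in EpCAM+ libraries 1 to 4 and at 1.37%, 2.77%, 1.18% and 3.43% in EpCAM- libraries 1 to 4. The highest ratio was that of EpCAM+ library 1, and the median was 7.22% in EpCAM+ against 2.07% in EpCAM-. An exact two-sided permutation test of the difference in mean ratio, not median, did not pass the threshold (p = 0.0857).

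Ms4a1 (ENSMUSG00000024673, chr19:11249675-11266241, minus strand), the gene of CD20, had the largest fitted change of the 7 tested. It passed the filter on low counts through its EpCAM+ libraries alone, so its place among the tested genes depends on the fraction in which it is high. It was not tested where at least 10 counts in every library were required. Its reads numbered 196, 21, 41 and 112 in EpCAM+ libraries 1 to 4 and 0, 0, 2 and 0 in EpCAM- libraries 1 to 4. All EpCAM+ libraries were above all EpCAM- libraries, and libraries 1 and 4 held 54.4% and 30.8% of the EpCAM+ sum. Against a floor of 3 reads per EpCAM- library (0.187 to 0.222 CPM), the EpCAM+ mean was at least 28.2-fold higher, and at least 17.2-fold higher without EpCAM+ library 1. The bound leaves aside the spread of the EpCAM+ libraries (5.89 ± 5.32 CPM, SD, n = 4), of which 2 and 3 were at 1.19 and 2.29 CPM. The edgeR fit gave a log2 value of 7.10 (SE 1.12, adjusted p 0.000995), a size that depends on the prior count because EpCAM- libraries are at or near 0. That fitted value was 6.38 without EpCAM+ library 1, 9.52 without EpCAM- library 3 (the only EpCAM- library with reads) and 5.35 without EpCAM+ libraries 1 and 4, and the gene stayed called in each (edgeR adjusted p 0.00169, 0.00851 and 0.00365). The exact permutation test gave its smallest possible p, 0.0286, and EpCAM+ was higher in 4 of 4 same-number pairs.

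Blnk (ENSMUSG00000061132, chr19:40928927-40994535, minus strand) encodes the adaptor that the kinase SYK phosphorylates downstream of the receptor. Reads numbered 121, 24, 28 and 44 in EpCAM+ libraries 1 to 4 and 32, 35, 17 and 19 in EpCAM- libraries 1 to 4. Library 1 held 57.8% of the EpCAM+ sum, and the other 3 EpCAM+ libraries (1.36 to 2.85 CPM) lay over the range of the EpCAM- libraries (1.16 to 2.59 CPM). The log2 fold change of 0.93 (SE 0.55, 95% interval -0.41 to 2.26) was not called (edgeR adjusted p 0.194), and it was 0.09 without EpCAM+ library 1.

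Vpreb1 (ENSMUSG00000059305, chr16:16868403-16870843, minus strand) encodes the variable-like component of the surrogate light chain. It had 55, 52, 72 and 47 reads in EpCAM+ libraries 1 to 4 and 61, 50, 44 and 31 in EpCAM- libraries 1 to 4. The 2 ranges overlapped, and the log2 fold change was 0.09 (SE 0.23, 95% interval -0.47 to 0.65; edgeR adjusted p 0.776). Exons of Top3b, which encodes a DNA topoisomerase and lies on the opposite strand with 1292 to 1662 reads per library, cover 108 of the 1199 exon bases of Vpreb1. The use of strand in the counting is not given in the sources used here, so reads of the 2 genes in the shared stretch cannot be told apart. The near-identical copy Vpreb2 had 0 to 4 reads per library, and reads that fit both copies could have been split or dropped.

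Igll1 (ENSMUSG00000075370, chr16:16860671-16863985, minus strand), the constant-like component lambda 5, had 7, 3, 9 and 31 reads in EpCAM+ libraries 1 to 4 and 12, 19, 3 and 10 in EpCAM- libraries 1 to 4. EpCAM+ library 4 carried 64.0% of the EpCAM+ sum. The log2 fold change of 0.01 had an SE of 0.72 and a 95% interval from -1.75 to 1.77 (edgeR adjusted p 0.994), so a difference within that interval is not excluded. The sign of the fitted value turned in 10 of 17 alternative analyses.

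Vpreb3 (ENSMUSG00000000903, chr10:75943057-75949657, plus strand) encodes a VPREB-related protein that associates with immunoglobulin chains in B cell precursors. It had 17, 15, 9 and 25 reads in EpCAM+ libraries 1 to 4 and 9, 10, 3 and 5 in EpCAM- libraries 1 to 4. EpCAM+ was higher in 4 of 4 same-number pairs, although EpCAM+ library 3 (0.503 CPM) lay below EpCAM- libraries 1 and 2 (0.562 and 0.740 CPM). The log2 fold change of 1.10 (SE 0.47, 95% interval -0.05 to 2.25) did not pass the threshold (edgeR adjusted p 0.0828, exact permutation p = 0.0857).

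Ebf1 (ENSMUSG00000057098, chr11:44617317-45008091, plus strand), a factor that opens the B cell program, had 0, 0, 1 and 2 reads in EpCAM+ libraries 1 to 4 and 0, 2, 1 and 3 in EpCAM- libraries 1 to 4. All 8 values are at or under the floor of 3 reads, so no fold is given. Pax5 (ENSMUSG00000014030, chr4:44524757-44710487, minus strand), the commitment factor, had 0 reads in each of the 8 libraries. A count of 0 allows up to 3 reads, or 0.0453 CPM over the 4 EpCAM+ libraries together and 0.0519 CPM over the 4 EpCAM- libraries (TMM-scaled library sizes), with counting error alone considered. Both factors were removed by the filter and were not tested across the table.

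**Figure D2:**
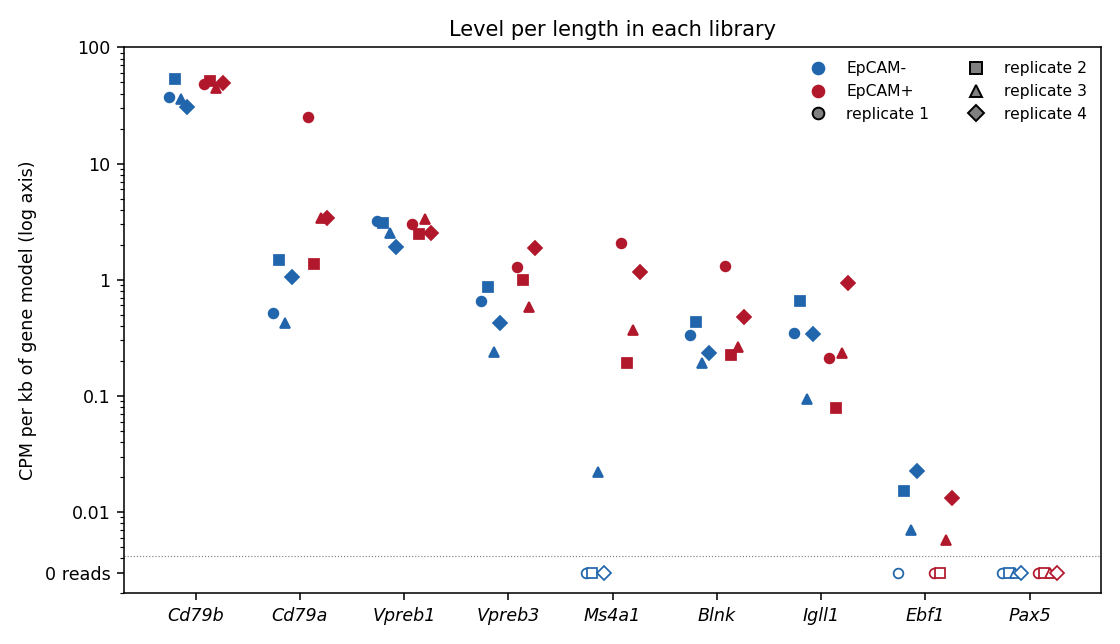
Level of each gene in every library as CPM per kb of gene length, on a log axis, in the order of the EpCAM+ means; open symbols under the dotted line mark libraries with 0 reads. Cd79b is far above the rest (means 48.4 in EpCAM+ and 39.3 in EpCAM-), and Cd79a ranges from 1.36 to 24.9 CPM per kb across the EpCAM+ libraries.

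Divided by gene length, the EpCAM+ means ran in the order Cd79b (48.4 CPM per kb), Cd79a (8.27), Vpreb1 (2.84), Vpreb3 (1.19), Ms4a1 (0.952), Blnk (0.571), Igll1 (0.363), Ebf1 (0.00476) and Pax5 (0). In that order the ranges of neighbours were apart for Cd79b and Cd79a, Vpreb1 and Vpreb3, and Igll1 and Ebf1, and overlapped for the other neighbours. In EpCAM- cells the order was Cd79b (39.3 CPM per kb), Vpreb1 (2.67), Cd79a (0.867), Vpreb3 (0.545), Igll1 (0.358), Blnk (0.298), Ebf1 (0.0112), Ms4a1 (0.00552) and Pax5 (0). There the ranges were apart for Cd79b and Vpreb1, Vpreb1 and Cd79a, and Blnk and Ebf1. The 2 orders differ mainly in Ms4a1, which stood in the middle of the EpCAM+ order and next to last in the EpCAM- order.

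The genes whose profiles over the 8 libraries lay nearest to each B-lineage gene were sought among all other protein-coding genes tested, by the root mean square difference of centred log2 CPM. The profiles were not scaled, so the distance follows the size of the variation. Genes that vary little lie close to each other whatever their shape, and genes that vary much lie far from most. Those nearest to Ms4a1 were Scimp (0.33), an adaptor of antigen-presenting cells, and Asb2 (0.49), a ubiquitin ligase subunit. On this unscaled measure Cd79a had no close neighbour: the nearest, Strip2 and Btla, an inhibitory receptor of lymphocytes, were both 0.83 away. For Cd79b they were Zfp810 (0.06) and Ccpg1os (0.08), and for Vpreb1 they were Jrkl (0.06) and Sik2 (0.08). Lgmn (0.16) and Alpk3 (0.29) were nearest to Vpreb3, Lpar1 (0.42) and Ccl6 (0.52) to Igll1, and Raph1 (0.28) and Gramd3 (0.35) to Blnk. Among the B-lineage genes themselves, the closest profiles were those of Cd79b and Vpreb1 (0.25), and those of Cd79a and Cd79b were 1.55 apart.

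Downstream of the receptor, 21 of 25 listed signaling genes were tested, and 9 were higher and 2 lower in EpCAM+ cells (median fitted change 0.23 on the log2 scale, against 0.02 over all genes). Over all genes tested 42.6% were called. Without EpCAM+ libraries 1 and 4 the number of called signaling genes was 6. In that fit fewer genes were called at large, 3675 of 14043 tested, against 5779 of 13560 with all libraries. Cd72, an inhibitory co-receptor, was higher by 0.94 (log2, SE 0.19), the kinase Fyn by 0.63 (SE 0.10) and the adaptor Dapp1 by 0.48 (SE 0.10), each without overlap of the fractions. Fcgr2b, the inhibitory Fc receptor, was lower, at 17.6 ± 4.62 against 38.9 ± 3.65 CPM (SD, n = 4; log2 fold change -1.14, edgeR adjusted p 0.000764).

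Among 18 regulators and recombination genes of the lineage, 12 were tested, with 5 higher and 1 lower (median log2 change 0.13). Over all genes tested, 42.6% were called, 21.8% higher and 20.8% lower. Pou2af1, the B cell coactivator OBF-1, had 178, 16, 38 and 26 reads in EpCAM+ libraries 1 to 4 and 0, 2, 1 and 0 in EpCAM- libraries 1 to 4. Its EpCAM+ mean was at least 19.6-fold above the floor of 3 reads, and EpCAM+ library 1 held 71.2% of the EpCAM+ sum, close to the 75.4% of Cd79a. The edgeR fit gave a log2 value of 6.08 (adjusted p 0.00259), 4.71 without EpCAM+ library 1 and 7.05 without EpCAM- library 2, and it was called in each. Foxo1 (0.66, SE 0.16) and Bach2 (0.94, SE 0.23), factors of B cell development, and Sox4 (0.49, SE 0.16), a factor of early lymphoid progenitors, were higher on the log2 scale. The fractions overlapped for Sox4, and its call was lost without EpCAM+ library 1 or 3 or EpCAM- library 3 or 4 (edgeR adjusted p 0.0528 to 0.0880). Without EpCAM+ libraries 1 and 4, Sox4 (edgeR adjusted p 0.0757), Bach2 (0.0935) and Tcf3 (0.0503) were not called. Tcf3, which encodes the E proteins E12 and E47 that act upstream of Ebf1, was lower, at 128 ± 8.83 against 182 ± 31.6 CPM (SD, n = 4; log2 fold change -0.51, SE 0.12, edgeR adjusted p 0.00650).

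Of 15 mature B cell surface genes, 10 were tested, 6 were higher and 0 lower (median log2 change 1.08). The shares over all genes tested were 21.8% higher and 20.8% lower. Fcrla, an Fc receptor-like protein of B cells, was at 46.2, 4.14, 10.8 and 47.5 CPM in EpCAM+ libraries 1 to 4 and at 0.0740 to 0.874 CPM in EpCAM- libraries. Cd83, an activation marker that dendritic cells share, was at 15.3, 2.27, 5.87 and 15.9 CPM in EpCAM+ libraries 1 to 4, with 0 to 7 reads per EpCAM- library. Both were highest in libraries 1 and 4, as Ms4a1 was. Ltb, a lymphotoxin subunit, was at 53.6 to 114 CPM in EpCAM+ and 5.30 to 27.7 CPM in EpCAM- libraries and was called higher. The BAFF receptor Tnfrsf13c was at 12.1 ± 1.52 against 4.63 ± 2.19 CPM, and its relative Tnfrsf13b (TACI) was at 86.6 ± 6.59 against 64.2 ± 8.24 CPM (SD, n = 4), both also higher in edgeR's test. Without EpCAM+ libraries 1 and 4 the fitted log2 fold change was 4.29 for Fcrla and 4.48 for Cd83, against 6.13 and 5.76 with all libraries, both still called, and Tnfrsf13b was not called (edgeR adjusted p 0.0798).

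**Figure D3:**
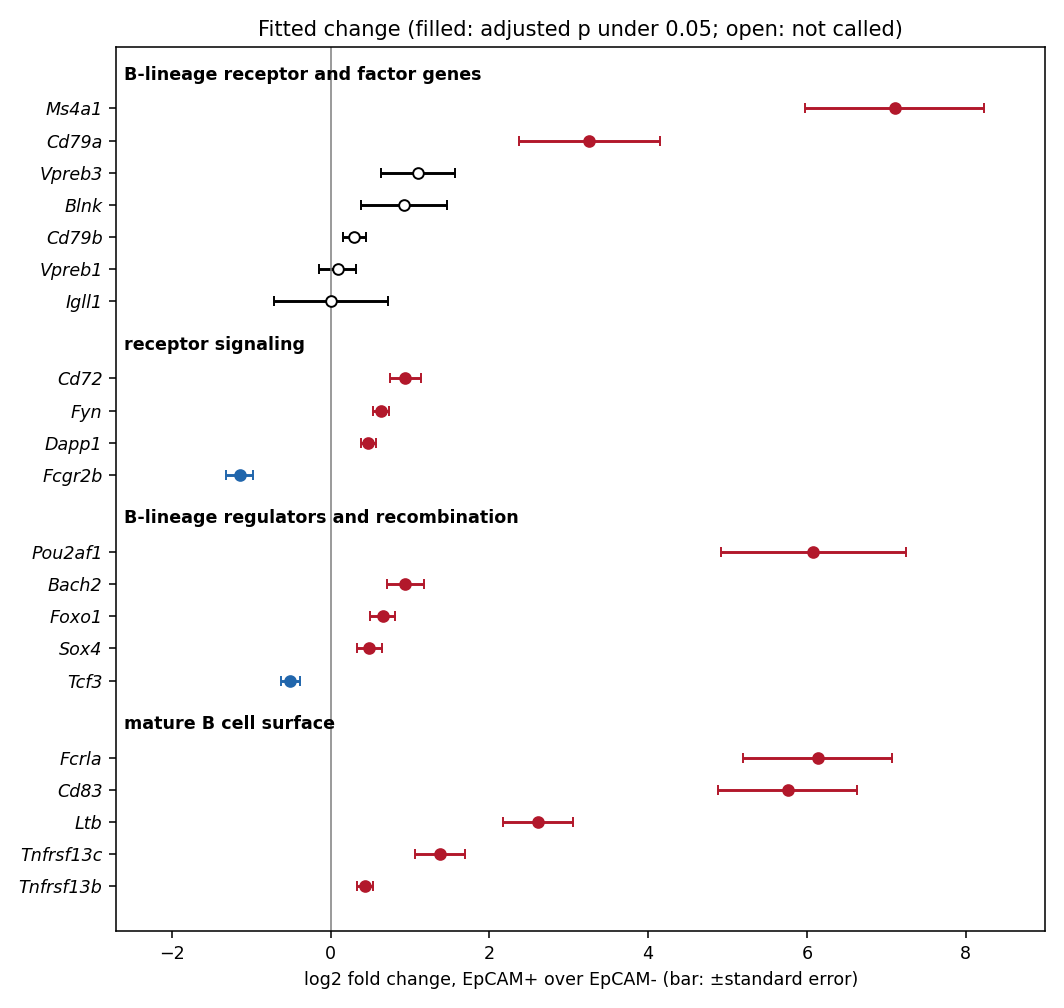
Fitted log2 fold change, EpCAM+ over EpCAM-, with its standard error, for the 7 tested B-lineage genes and for 14 genes of 3 lists, those with the smallest adjusted p that are reported here. Filled symbols have an adjusted p under 0.05 in edgeR's unpaired test. Ms4a1 (7.10) and Cd79a (3.26) are filled, the other 5 B-lineage genes are open, and Fcgr2b (-1.14) and Tcf3 (-0.51) lie below 0.

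Among marker lists of other cell types, the conventional dendritic cell sum was highest in EpCAM+ libraries 1 and 4, as Ms4a1 was. The plasma cell sum was highest in EpCAM+ library 1, as Cd79a was. So was the plasmacytoid dendritic cell sum, at 291, 216, 237 and 224 CPM in EpCAM+ libraries 1 to 4, while EpCAM- library 2 reached 246 CPM. The T cell, the erythroid, and the neutrophil and monocyte sums were not highest in EpCAM+ library 1. Of 7 conventional dendritic cell markers, 6 were tested, 5 were higher and 0 lower, against 21.8% and 20.8% of all genes tested. The summed level of the 7 markers was 4676, 399, 1172 and 4727 CPM in EpCAM+ libraries 1 to 4 and 103 to 160 CPM in EpCAM- libraries. It ordered the EpCAM+ libraries with 1 and 4 on top, as did Ms4a1, and H2-Ab1, an MHC class II gene that B cells also express, made up most of it (4455, 382, 1120 and 4530 CPM). Xcr1, a defining receptor of this cell type, was at 147, 11.5, 35.8 and 131 CPM in EpCAM+ libraries 1 to 4 and at 0.137 to 0.811 CPM in EpCAM- libraries. Zbtb46 was the tested marker of the list that was not called. It was at 8.54 ± 6.52 CPM in EpCAM+ and 10.4 ± 6.10 CPM in EpCAM- libraries (SD, n = 4), with a log2 fold change of -0.29 (edgeR adjusted p 0.727). Without EpCAM+ libraries 1 and 4 the fitted log2 fold change fell from 7.59 to 5.80 for Xcr1 and from 4.53 to 2.71 for H2-Ab1, and both stayed called (edgeR adjusted p 0.000573 and 0.00169).

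Of 8 plasma cell markers, 6 were tested, 4 were higher and 0 lower, against 21.8% and 20.8% of all genes tested. The summed level of the 8 markers was 4099, 462, 706 and 481 CPM in EpCAM+ libraries 1 to 4 and 171 to 260 CPM in EpCAM- libraries. Jchain, which joins secreted immunoglobulins, made up most of it in EpCAM+ library 1 (3525 CPM) and was at 199 to 429 CPM in the other 3 EpCAM+ libraries. Its share in library 1, 80.6% of the EpCAM+ sum, was near that of Cd79a, and EpCAM- libraries had 0 to 4 reads of it. Without EpCAM+ library 1 its fitted log2 fold change was 10.91, against 12.87 with all libraries, and it stayed called (edgeR adjusted p 5.8e-06). Xbp1 made up most of the plasma cell sum in the EpCAM- libraries and was not called (edgeR adjusted p 0.767). Its level was 238 ± 75.5 CPM in EpCAM+ and 225 ± 39.2 CPM in EpCAM- libraries (SD, n = 4).

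Of 8 plasmacytoid dendritic cell markers, 5 were tested, 2 were higher and 1 lower (5 called without EpCAM+ library 2 and 5 without EpCAM- library 1). For this list and those that follow, the shares over all genes tested were 21.8% higher and 20.8% lower. The sum of the 8 markers was 216 to 291 CPM in EpCAM+ and 176 to 246 CPM in EpCAM- libraries, and Klk1 was at 0 in all 8 libraries. No listed plasma cell or conventional dendritic cell marker was at 0 in all 8. Ly6d, a marker also of lymphoid progenitors, was at 49.6, 7.54, 6.93 and 5.25 CPM in EpCAM+ libraries 1 to 4, again highest in library 1. Its fitted log2 fold change was 4.94, and 3.54 without EpCAM+ library 1, and it was called in both. Of 8 T cell markers, 2 were tested and both were higher (Lck and Cd4; summed level 54.3 to 67.5 against 17.4 to 29.5 CPM), while Cd3e had 0 to 1 reads per library. The fractions overlapped for Cd4, and its call was lost on leaving out any library but EpCAM+ 1 and EpCAM- 2 (edgeR adjusted p 0.0502 to 0.123), and also without EpCAM+ libraries 1 and 4 together (0.0950). Of 7 neutrophil and monocyte markers, 4 of the 6 tested were lower, and of 5 erythroid markers, all tested, 4 were lower, with none higher in either list. The part of any of these cell types in the levels of Ms4a1, Cd79a and Blnk was not tested. Without EpCAM+ libraries 1 and 4, Ms4a1 stayed called and Cd79a did not, as given above, in a fit that called fewer genes at large.

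**Figure D4:**
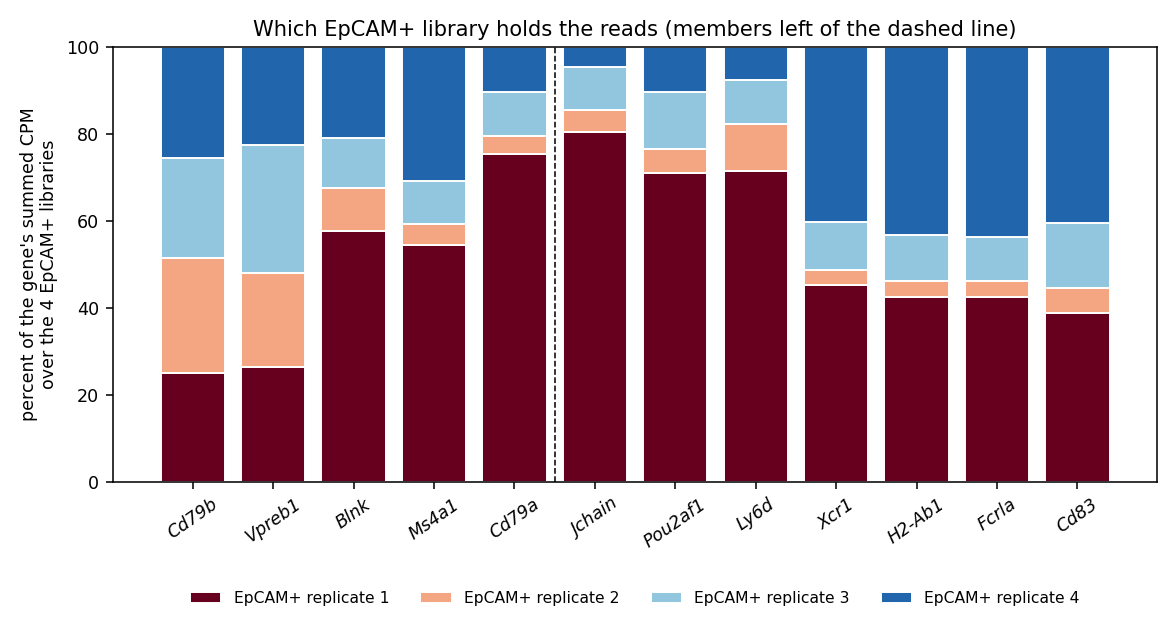
Share of the summed CPM of the 4 EpCAM+ libraries that each library holds, in percent, for 5 B-lineage genes (left of the dashed line) and 7 other genes. Cd79b is spread evenly (23.1% to 26.3% per library), Cd79a (75.4%), Jchain (80.6%) and Pou2af1 (71.2%) sit mostly in library 1, and Xcr1, H2-Ab1, Fcrla and Cd83 in libraries 1 and 4.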

How the data were processed

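The authors amplified RNA of sorted cells with SMART-Seq v4, made NEBNext Ultra libraries, sequenced paired ends, aligned them to GRCm38 with STAR 2.6.1d and deposited whole-number read counts per gene from featureCounts 1.5.0-p3, with no normalization. FPKM values that the authors deposited in the same table were not used. The table also holds fold changes and p-values that the authors computed with DESeq2 1.20.0, which were not used, and gene lengths, which the authors deposited and which equalled the summed exon length in GENCODE M21 for all 9 genes. Annotation release, strand setting and treatment of reads that fit several genes are not given in the sources used here. The labels give 4 mice per genotype.

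Counts were filtered with filterByExpr, scaled by TMM and tested with edgeR 4.0.16 (quasi-likelihood, two-sided, Benjamini-Hochberg over 13560 genes, threshold 0.05; R 4.3.3). SEs came from the F statistic and 95% intervals from 6 residual degrees of freedom. The filter keeps a gene that reaches its minimum in 1 fraction alone, as Ms4a1 and Pou2af1 did. CPM used TMM-scaled totals. Single genes were also compared with exact two-sided permutation tests of the difference in means. A floor of 3 reads corresponds to 0.168 to 0.222 CPM and covers counting error only. Alternatives used limma 3.58.1 (pseudocount 2), DESeq2 1.42.0, other scalings and filters, a replicate block and each library left out. A fit without EpCAM+ libraries 1 and 4 together was not planned and was added to these. Figures were drawn with matplotlib 3.10.9. The fit was tested on simulated data.

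The members and gene lists were chosen with earlier results of these data known. Other genes named are Epcam and Zeb1, the 5 tested genes with the smallest adjusted p of each B-lineage list, the 3 most abundant of each marker list and the 2 nearest profiles per member. Top3b, Vpreb2, Cd3e and Klk1 were added once their values had been seen. Not every listed gene that this rule names is reported here. Same-number libraries deviated together from their fraction means (correlation across genes 0.205 to 0.356 in 4 pairs, against -0.216 to 0.0396 in 12 pairs with different numbers), so the numbers pair the samples. What they share is not stated. No 2 libraries of a fraction agreed within sampling noise (chi-square per degree of freedom 10.2 to 96.9 over 12 pairs). Sequences are from RefSeq on GRCm38.p6.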

Additional observations from a re-analysis of the deposited data

Results flagged for a closer look

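In 117 groups of 4 libraries (a gene in a fraction), 11 had a highest or lowest library whose gap to its neighbour exceeded Dixon's 95% critical value, where chance alone flags about 1 in 20 groups. Among the B-lineage genes these were Cd79a in EpCAM+ library 1 (36.4 CPM, the highest of 4) and Ms4a1 in EpCAM- library 3 (0.137 CPM, which is 2 reads against 0 in the other 3). EpCAM+ library 1 was also the highest of 4 and set apart for Jchain (3525 CPM), Ly6d (49.6 CPM) and Pou2af1 (11.6 CPM). In the EpCAM+ fraction Cd72 was set apart in library 2 (117 CPM) and Klf1, an erythroid factor, in library 4 (26.5 CPM), each as the highest. In the EpCAM- fraction the highest values set apart were Foxo1 in library 1 (15.8 CPM), Slamf7, a plasma cell marker, in library 1 (2.56 CPM) and Cd4 in library 2 (1.63 CPM), and the lowest was Xbp1, a factor of plasma cells, in library 4 (167 CPM).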

How the results depend on the processing

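Ms4a1 was higher and called in all 17 alternatives that tested it (log2 4.76 to 9.52). Cd79a was higher in all 17 and called in all but that without EpCAM+ replicates 1 and 4 (1.45, adjusted p 0.0726), with 1.64 to 3.63 when single libraries were left out. Without EpCAM+ replicates 1 and 4, 3675 genes and 1 of the 9 B-lineage genes were called, Igll1 was -1.18, Blnk -0.29 and Xbp1 -0.059. With at least 10 counts in every library 0 of the 9 were called, since Ms4a1 and Cd79a were not tested there (2578 genes higher, 2498 lower), and Bst2 was 0.0033 instead of -0.02. Leaving out single libraries gave 4662 to 6039 called genes, 2 to 3 of the 9 among them, and log2 values of 0.19 to 0.47 for Cd79b, -0.047 to 0.18 for Vpreb1, -1.02 to 0.44 for Igll1, -0.16 to 0.21 for Xbp1, -0.092 to 0.049 for Bst2 and -0.66 to 0.049 for Zbtb46. With the replicate number as a block, 6818 genes were called, Cd79b was 0.32 (adjusted p 0.0370) and Igll1 -0.14, and the block changed no other call among the 9. Igll1 was -0.0023 with DESeq2, -0.18 with limma, -0.00082 with DESeq2's size factors and -0.00065 with genes of 1 count kept. With upper quartile scaling Bst2 was 0.063 and 63.6% of calls were higher, and with library totals 0.061 and 62.7%. With DESeq2 10 lineage regulators were called instead of 6. With at least 10 counts in every library the calls numbered 3 instead of 6 for mature B cell surface genes, 1 instead of 4 for plasma cell, 2 instead of 5 for conventional and 1 instead of 3 for plasmacytoid dendritic cell markers, and with genes of 1 count kept 5 plasmacytoid dendritic cell markers were called. The cause of these changes was not tested. Igll1, Vpreb3 and Ebf1 had at most 31, 25 and 3 reads per library.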
